A study of Homo sapiens with 6 samples.

Results

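A pooled screen of 7873 short hairpin RNAs (shRNAs) held 35 shRNAs listed against messenger RNAs of the hepatocyte nuclear factor 4 paralogues, 30 against HNF4A and 5 against HNF4G. They were taken from the annotation of the library as all shRNAs whose target is a RefSeq mRNA and whose gene symbol is HNF4A or HNF4G, whatever their counts. The library was designed mainly against long non-coding RNAs of HUH7, an established human hepatocellular carcinoma line, and the question of the screen was which shRNAs are lost while the cells grow. Counts were given for the plasmid pool before it was packaged into virus (3 input libraries) and for shRNA cassettes from the genomic DNA of HUH7 cells at the end of the screen (3 selected libraries). All selected cells carried a pLKO.1 vector with a puromycin resistance gene, were infected at a multiplicity of infection of 0.3, received puromycin 2 days later and for 4 days, and were then grown for 4 more weeks with about 500 cells per shRNA. No other line, genotype or drug was compared. Packaging into virus, infection, puromycin and growth all lie between input and selected libraries and cannot be told apart.

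HNF4A is a nuclear receptor that binds DNA as a homodimer and maintains the expression of liver genes, among them those of lipid, bile acid and clotting factor metabolism. Transcription from its promoter P1, which dominates in adult liver, gives isoforms with an N-terminal activation domain, and the upstream promoter P2, used in fetal liver, pancreas and gut, gives isoforms without it. HNF4G is its closest paralogue, recognises much the same DNA motif and is best known from intestine, kidney and pancreas. An shRNA is processed into a short guide RNA that directs cleavage of matching transcripts, and the seed at the 5′ end of the guide can also repress transcripts with only partial matches.

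In GRCh37 with GENCODE release 44, the 30 HNF4A targets lie in exons of HNF4A (chr20:42984339-43061485, plus strand) and match no exon of another gene. Of these, 27 match 1 place in the genome and 3 cross a splice junction. The coding sequence holds 21 targets and the 3′ UTR 9. The sequences of 7 targets are printed because the results turn on them: those of the shRNAs that passed both thresholds (12, 19, 29 and 30), that of a direct neighbour (11), and those of the first coding exons that tell P2 from P1 transcripts (4 and 6). Each is the sense strand of the messenger, 5′ to 3′, as listed in the annotation, and the capitals mark bases 14 to 20, which pair with the seed of the guide (its bases 2 to 8). The shRNAs are numbered in the order of the annotation within each gene.
HNF4A shRNA 12: tcctcccttcctcCCTATTAa
HNF4A shRNA 11: gacatgcatcatcTCATTTAa
HNF4A shRNA 19: ctcctaggcaatgACTACATt
HNF4A shRNA 30: ccaagagatccatGGTGTTCa
HNF4A shRNA 29: gtcatcgttgccaACACAATg
HNF4A shRNA 4: gctccagtggagaGTTCTTAc
HNF4A shRNA 6: gcctacaccacccTGGAATTt
The targets of shRNAs 11 and 12 are directly adjacent in the 3′ UTR (chr20:43059575-43059595 and chr20:43059596-43059616), with 0 bases between them. That of shRNA 30 lies in exon 6 (chr20:43047114-43047134, codons 211 to 218 of HNF4A-202), 11 bases before that of shRNA 19, which joins exons 6 and 7 (chr20:43047146-43048374 with the intron, codons 222 to 228). That of shRNA 29 lies in exon 9 (chr20:43057049-43057069, codons 380 to 386). That of shRNA 4 lies in the first exon of the P2 transcripts (chr20:42984472-42984492) and that of shRNA 6 in the first exon of the P1 transcripts (chr20:43030076-43030096).

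Library depth ran from 2323330 to 2612829 counts in the input and from 1525256 to 4013368 in the selected group, where replicate 1 was the shallowest. The spread between libraries beyond counting error, as the coefficient of variation from edgeR's common dispersion, was 1.47% for the input and 24.0% for the selected libraries. The labels do not say whether the 3 libraries of a group came from separate infections or cultures, so p-values measure only the spread between these libraries. The reads carry no molecular identifiers, and intervals cover counting error only. Levels are given as normalized counts (counts scaled by TMM to the mean library size). Changes are given as log2(fold change) of input over selected, so that a positive value means fewer reads after selection. Depleted shRNAs are those that reached 0.75 on this scale with an adjusted p no higher than 0.05 (edgeR's quasi-likelihood test, Benjamini-Hochberg over all shRNAs tested), and enriched shRNAs those at -0.75 or less with the same p. Tests were run on the 7232 shRNAs whose counts averaged 10 or more across all 6 libraries, among them 26 against HNF4A and 4 against HNF4G. The lowest mean of these 30 in the input was 40.5 normalized counts, so that none of them passed through the selected libraries alone.

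The shRNAs against HNF4A moved in both directions. Among the 26 tested, 2 were depleted and 2 enriched (7.69% each), where 6.83% of all tested shRNAs were depleted and 5.85% enriched. The remaining 22 passed neither threshold pair. Without a limit on the fold, 3 were lower and 3 higher after selection at an adjusted p of at most 0.05, against 15.4% and 17.4% of all tested shRNAs. The input and selected libraries did not overlap for 5 shRNAs that were lower and 6 that were higher after selection, and 25.6% of all tested shRNAs had such groups in each direction. Values of log2(fold change) were positive for 11 and negative for 15, with a median of -0.11 and a range from -0.90 to 0.93, beside a median of -0.01 over all tested shRNAs. These shares lay near those of the whole library.

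The HNF4A shRNA with the highest log2(fold change) was shRNA 12, in the 3′ UTR. It had 474, 491 and 436 normalized counts in the input and 146, 264 and 309 in the selected libraries. Every selected library was below every input library, and selected replicate 1 was the lowest. Its log2(fold change) was 0.93 ± 0.22 (SE, n = 3 libraries per group), with an adjusted p of 0.0134 in edgeR. Without input replicate 1 or 2, the adjusted p in edgeR rose to 0.0562 and 0.0588. Without any 1 input library, 3.5% to 3.86% of all tested shRNAs were depleted, against 6.83% with all 6 libraries. Without selected replicate 1 the log2(fold change) of shRNA 12 was 0.70, short of the limit of 0.75. The adjacent shRNA 11 had 539, 568 and 527 normalized counts in the input and 510, 372 and 378 in the selected libraries, again with no overlap. Its log2(fold change) of 0.39 ± 0.13 (SE) had the same sign as that of its neighbour and missed the threshold of p (adjusted p = 0.0519, edgeR). It passed that threshold in 8 of 15 alternative settings, with adjusted p from 0.00178 (edgeR, without selected replicate 1) to 0.174 over all of them. The target of shRNA 23 ends 7 bases upstream of that of shRNA 11. Its log2(fold change) had the opposite sign, with a wide error (-0.29 ± 0.56 SE).

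The second depleted HNF4A shRNA was shRNA 19, across the junction of exons 6 and 7, in the part that encodes the ligand-binding domain. It had 379, 373 and 392 normalized counts in the input and 174, 233 and 242 in the selected libraries, so that all selected libraries were lower. Input over selected gave a log2(fold change) of 0.80 ± 0.15 (SE), with an adjusted p of 0.00462 in edgeR. Without selected replicate 1, it was 0.68, below the limit of 0.75. No HNF4A shRNA was called depleted without that library, where 8.31% of all tested shRNAs were. The target of shRNA 30, which lies 11 bases upstream in exon 6, gave a change of the opposite sign. It had 355, 394 and 417 normalized counts in the input and 878, 689 and 620 in the selected libraries. All selected libraries were above all input libraries here. This gave a log2(fold change) of -0.90 ± 0.14 (SE), with an adjusted p of 0.00229 in edgeR. Both targets are present in all 6 complete coding transcripts of HNF4A. The difference between these shRNAs was not tested.

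The other enriched HNF4A shRNA, shRNA 29 in exon 9, had the smallest standard error of the called shRNAs. It had 658, 673 and 623 normalized counts in the input and 1105, 1162 and 1084 in the selected libraries. The groups were far apart compared with their spread. The log2(fold change) was -0.78 ± 0.07 (SE), with an adjusted p of 0.000652 in edgeR. This value is close to the limit of -0.75, and was -0.74 without input replicate 3 and with library totals as the only scaling, and -0.75 (short of the limit) without selected replicate 2. The target of shRNA 3, 10 bases upstream in the same exon, had 158, 171 and 165 normalized counts in the input and 216, 265 and 93.1 in the selected libraries. Its groups overlapped, and its log2(fold change) of -0.20 ± 0.33 (SE) did not pass (adjusted p = 0.661, edgeR).

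2 further HNF4A shRNAs passed the threshold of p with changes under the fold limit. For shRNA 18, in exon 5, normalized counts were 198, 183 and 178 in the input and 119, 134 and 104 in the selected libraries (log2(fold change) 0.65 ± 0.18 SE, adjusted p = 0.0206, edgeR). With any 1 input library left out, shRNA 18 missed the threshold of p (adjusted p = 0.0803 to 0.111, edgeR). Without selected replicate 2 its log2(fold change) was 0.76. For shRNA 24, in the 3′ UTR, they were 1023, 970 and 996 in the input and 1261, 1179 and 1278 in the selected libraries (-0.31 ± 0.07 SE, adjusted p = 0.00813, edgeR). This was a small increase with a narrow spread, and it missed the threshold of p without input replicate 2 or 3 (adjusted p = 0.0576 and 0.0536, edgeR). Without any 1 input library, fewer shRNAs of the whole library were depleted or enriched.

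The 20 remaining tested HNF4A shRNAs had log2(fold change) values from -0.57 to 0.39, with adjusted p from 0.0519 to 0.926 (edgeR). The lowest of them was shRNA 13 in exon 10, with 116, 144 and 115 normalized counts in the input and 131, 279 and 141 in the selected libraries. There 1 selected library stood well above the other two, and the adjusted p was 0.165 (edgeR). The widest spread was that of shRNA 23 in the 3′ UTR, with 36.4, 48.9 and 36.2 normalized counts in the input and 8.98, 56.5 and 76.3 in the selected libraries, a coefficient of variation of 73.2% over the selected libraries. At this abundance its log2(fold change) of -0.29 ± 0.56 (SE) was smaller than its error. The most abundant, shRNA 9 in exon 7, had 1422, 1448 and 1423 normalized counts in the input and 1541, 1278 and 1430 in the selected libraries, with a log2(fold change) of 0.02 ± 0.08 (SE).

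Values were next compared by position within the gene. The 19 tested shRNAs against the coding sequence held 1 depleted and both enriched shRNAs and had a median log2(fold change) of -0.07. The 7 against a 3′ UTR held the other depleted shRNA and had a median of -0.18 (range -0.31 to 0.93). That median is the value of shRNA 7, in the separate 3′ UTR of HNF4A-205. The 6 in the 3′ UTR of exon 10 of HNF4A-202 had a median of 0.07. These groups are described by their values only, and their differences were not tested. The 4 shRNAs against the coding part of exons 9 and 10, numbers 3, 13, 14 and 29, had negative values (-0.78 to -0.07), as had 3686 of all 7232 tested shRNAs, and only for shRNA 29 did the groups not overlap. The sign of shRNA 3 turned without selected replicate 2 (0.16) and with voom (0.07), and that of shRNA 14 without selected replicate 3 (0.04). Of the 3 shRNAs whose targets reach codons of the zinc fingers, which bind DNA, shRNAs 1 and 26 were tested and had log2(fold change) values of 0.06 and 0.14, with overlapping groups.

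Transcripts from the promoters P1 and P2 of HNF4A were told apart by shRNAs 4 and 6, in their first exons. The target of shRNA 7 marks the 3′ end of 1 P1 transcript and not the promoter. Other targets are also missing from some complete coding transcripts, that of shRNA 12 being found in 2 of the 6 and that of shRNA 29 in 4, each from both promoters. The target of shRNA 4 is found only in the 3 complete coding transcripts that start at P2. It had 79.9, 71.6 and 106 normalized counts in the input and 108, 64.5 and 70.3 in the selected libraries (log2(fold change) 0.11 ± 0.28 SE, adjusted p = 0.788, edgeR). The target of shRNA 6 is found only in the 3 that start at P1, and had 393, 394 and 362 normalized counts in the input and 444, 290 and 386 in the selected libraries (0.05 ± 0.16 SE, adjusted p = 0.841, edgeR). That of shRNA 7 lies in the 3′ UTR of the P1 transcript HNF4A-205 alone, and its log2(fold change) was -0.18 ± 0.11 (SE, adjusted p = 0.253, edgeR). None of these 3 shRNAs passed the test, and with 1 shRNA per promoter no isoform could be assessed further. Of the 15 shRNAs whose targets are in all 6 complete coding transcripts, 13 were tested, 1 was depleted and 1 enriched, and the median was -0.02.

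HNF4G lies at chr8:76320149-76479069 (GRCh37, plus strand), and the 5 targets are in its coding exons. All 4 tested shRNAs against it were lower after selection in every library than in any input library, where 25.6% of all tested shRNAs had such groups. Of these 4, 2 were depleted (50%, against 6.83% of all tested shRNAs), none was enriched (5.85% of all), and 3 were lower at an adjusted p of at most 0.05 without a fold limit (15.4% of all). Their log2(fold change) ranged from 0.49 to 1.25 with a median of 0.84. With 4 tested shRNAs these shares are a description of few values, and the difference from the shRNAs against HNF4A was not tested.

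The target of HNF4G shRNA 4 lies in the first exon of HNF4G-203, codons 21 to 27. It had 653, 649 and 639 normalized counts in the input and 244, 402 and 320 in the selected libraries. Its log2(fold change) was 0.99 ± 0.16 (SE), with an adjusted p of 0.00262 in edgeR, and it remained past both thresholds without any 1 library (0.85 to 1.17). HNF4G shRNA 2, 5 bases further along the same exon, had 259, 277 and 280 normalized counts in the input and 163, 168 and 170 in the selected libraries. Its selected libraries were the most alike of the tested HNF4G shRNAs. Its log2(fold change) of 0.70 ± 0.14 (SE, adjusted p = 0.0055, edgeR) passed the threshold of p and not that of the fold. The targets of both are absent from HNF4G-201, which starts at another exon.

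HNF4G shRNA 5, in exon 2, had the highest log2(fold change) of the shRNAs tested against either gene and the widest spread among those against HNF4G. It had 200, 186 and 213 normalized counts in the input and 137, 39.4 and 85.0 in the selected libraries. All selected libraries were below the input, and replicate 2 was far below the other two. The fitted log2(fold change) was 1.25 ± 0.36 (SE), with an adjusted p of 0.0266 in edgeR. The call was lost without any 1 input library (adjusted p = 0.0747 to 0.0941, edgeR) or selected replicate 3 (0.0710). Without any 1 input library, the log2(fold change) itself was 1.20 to 1.29. Of all tested shRNAs, 3.5% to 3.86% were then depleted, against 6.83% with all 6 libraries. HNF4G shRNA 3, in exon 5, had 165, 175 and 174 normalized counts in the input and 135, 119 and 114 in the selected libraries. Its log2(fold change) of 0.49 ± 0.17 (SE) missed the threshold of p (adjusted p = 0.0511, edgeR), and passed it in 4 of 15 alternative settings (0.0136 to 0.184 over all of them). Its target also matches the pseudogene HNF4GP1, so it has 2 places in the genome.

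5 of the 35 shRNAs had a mean count under 10 and were not tested, 4 against HNF4A (13.3%) and 1 against HNF4G (20%), beside 8.14% of the whole library. HNF4G shRNA 1, in the zinc finger codons, had 7, 5 and 8 reads in the input and none after selection, which is at least 7.45-fold lower with a floor of 3 counts over the selected libraries. In a fit without the filter its adjusted p was 0.00879 (edgeR). HNF4A shRNA 21, in the 3′ UTR, had 4, 2 and 5 reads in the input and 17, 15 and 2 after selection. The ratio of selected to input was 2.77 (95% counting interval 1.37 to 6.05) with an adjusted p of 0.184 in the same fit. HNF4A shRNA 5 had 6 reads, all in input replicate 2, and none after selection. With the same floor this is at least 2.23-fold lower, though it rests on 1 library (adjusted p = 0.193 without the filter, edgeR). HNF4A shRNA 2 had 3 reads in the input and 1 after selection, and HNF4A shRNA 15 had 1 read in each group. At this depth the test without the filter detected no change for the last 3.

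The screen's rule for a candidate asks for 2 shRNAs with a log2(fold change) of at least 1, or 3 with at least 0.75, each with an adjusted p of at most 0.05. The study tested its counts with DESeq2, whereas the rule is applied here to edgeR values. Neither gene met it in edgeR: HNF4A had 0 and 2 such shRNAs and HNF4G had 1 and 2. HNF4G was close to the limit in edgeR, since its shRNA 4 stood at 0.99. This value was 0.998 with DESeq2 and 0.926 with DESeq2 and its beta prior. That of HNF4G shRNA 5 was 1.23 with DESeq2 and 0.905 with the beta prior. With the beta prior HNF4G thus had 0 shRNAs at 1 or more and 2 at 0.75 or more. HNF4G met the rule with library totals as the only scaling and without the filter. It also did with a mean count of at least 100 and with the replicate number as a block. HNF4G did not meet it with RLE factors, DESeq2 (with or without the beta prior), a robust spread, voom or any 1 library left out. HNF4A met the rule only without selected replicate 2, with 3 shRNAs at 0.75 or more among 26 tested. In that setting 7.86% of all tested shRNAs were depleted. The study set the rule for lncRNAs with far fewer shRNAs each, so HNF4A had more occasions to meet it.

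No target of one paralogue had an exact match in transcripts of the other. In an alignment of the proteins encoded by HNF4A-202 (452 residues) and HNF4G-203 (455 residues), 307 of 432 aligned residues (71.1%) were identical, and 53 of 56 (94.6%) in the zinc fingers. At the level of the 21-base targets, HNF4A shRNAs had 3 to 9 mismatches to their best place in HNF4G transcripts, and HNF4G shRNAs had 5 to 7 in HNF4A transcripts. The 4 HNF4A shRNAs with 4 or fewer mismatches, numbers 9, 10, 27 and 30, had log2(fold change) values from -0.90 to 0.02, and 1 of them was enriched. No shRNA against either gene shared a seed with another of the 35.

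The seed of each of the 35 shRNAs was shared by 0 to 31 other tested shRNAs of the library, and those of the shRNAs named above for their change are given here. The seed of HNF4A shRNA 12 was shared by 3 other tested shRNAs, with log2(fold change) values from -0.16 to 0.38 and no call. The seed of HNF4A shRNA 29 was shared by 2, at 0.22 and 0.64, which is the opposite sign. Those of HNF4A shRNAs 19 and 30 were shared by none. HNF4A shRNA 18 shared its seed with 1 shRNA, which was depleted (0.90), HNF4A shRNA 24 with 8, none of them called (-0.69 to 0.30), and HNF4A shRNA 11 with 2, at -0.23 and 0.35. The seed of HNF4G shRNA 4 was shared by 1 other shRNA, which was itself depleted (1.14), and that of HNF4G shRNA 5 by 2, at -0.27 and -0.22. HNF4G shRNA 2 had 1 such partner (-0.39), and HNF4G shRNA 3 had 3, from -0.24 to 0.96, of which 1 was depleted. The part of the seed in these results was not tested, and the mRNA levels of HNF4A and HNF4G after knockdown were not analysed here.

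Other hepatocyte transcription factors gave the setting for these values. Of a list of 43 such factors and cofactors, 9 were in the library with 150 shRNAs. Of the 136 tested, 7 were depleted and 7 enriched (5.15% each, beside 6.83% and 5.85% of all tested shRNAs), and the median log2(fold change) was 0.04. ONECUT2 is a homeobox factor of the liver. Its depleted share was the largest of the 9 factors (50%, against 0% to 20% for the others), with 2 depleted shRNAs among 4 tested. One of them went from 144 reads in all input libraries to 1 read in all selected libraries (adjusted p = 0.000833, edgeR), and the other from 326 ± 23.5 to 181 ± 43.5 normalized counts (SD, 0.85, adjusted p = 0.00953, edgeR). NR3C1, the glucocorticoid receptor, had the most shRNAs, with 2 depleted and 2 enriched of 67 tested.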

How the data were processed

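Per the submitters' processing notes and the methods, the authors used cutadapt 1.4.2 for trimming, BWA 0.7.10 for alignment against the shRNA library and SAMtools 1.3 for counting. They tested the counts with DESeq2. The deposited values are whole, unnormalized read counts per shRNA. All 6 libraries were tested with the quasi-likelihood test of edgeR 4.0.16 (R 4.3.3), with TMM, a shared spread and no block. Standard errors are the absolute log2(fold change) divided by the root of F. The test was also run on simulated counts of 7232 shRNAs in this comparison, with the same spread for every shRNA of a group. It recovered 50 of 50 planted at a log2(fold change) of 2 and 49 of 50 at -2. At 1 and -1 it recovered 39 and 41 of 50, and there were 0 false calls. In the data, tested HNF4A shRNAs had coefficients of variation from 3.61% to 73.2% over the selected libraries. The recovered numbers therefore cover a shared spread only. For the selected libraries that spread was also set below the 24.0% measured, so recovery in the data may be lower. Targets were matched without mismatches to GRCh37 and GENCODE release 44 with Python 3.11.15, and proteins were aligned with Biopython 1.88. Only transcripts with complete coding sequences were counted as isoforms.

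All 35 shRNAs were described whatever their value. For the list of 43 factors, at most the 2 shRNAs of smallest adjusted p per gene were named. Values for 1 of these factors are not reported here, though it is part of the counts. No lncRNA target was named for HNF4A or HNF4G, among 1371 of 1543 with a name. The shRNAs and lists were chosen with earlier results of these data known. Alternatives were no filter, RLE factors, library totals, a minimum mean count of 100, a robust spread, DESeq2 1.42.0 (also with a beta prior), limma 3.58.1 voom with group weights, the replicate block, no fold limit and each library left out.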

Additional observations from a re-analysis of the deposited data

How the results depend on the processing

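The number of depleted HNF4A shRNAs fell from 2 to 1 under DESeq2 with its beta prior, where shRNA 19 had a log2(fold change) of 0.7479, and ranged from 0 (without selected replicate 1) to 3 (without selected replicate 2) when 1 library was left out. The number enriched fell from 2 to 1 with library totals as the only scaling, and ranged from 1 (without input replicate 3 or selected replicate 2) to 2. The number of depleted HNF4G shRNAs ranged from 1 (without any 1 input library or selected replicate 3) to 2. It was 3 without the filter, since HNF4G shRNA 1 was then tested. With all 6 libraries, 6.83% of all tested shRNAs were depleted and 5.85% enriched. Without any 1 input library, 3.5% to 3.86% were depleted and 3.99% to 4.17% enriched. The depleted share was 8.31%, 7.86% and 7.88% without selected replicates 1, 2 and 3. It was 5.39% with the beta prior and 7.41% without the filter. The enriched share was 6.63% without selected replicate 2 and 5.21% with library totals as the only scaling. The median log2(fold change) of HNF4A shRNAs, -0.11, was -0.045 without the filter, -0.047 with voom, -0.031 with the replicate block, and -0.12 to -0.047 with 1 library left out. That of HNF4G shRNAs, 0.84, was 0.98 without the filter, where 5 shRNAs enter, and 0.77 to 0.87 with 1 library left out. Same-numbered libraries did not deviate together from their group means (correlations -0.034 to 0.0058, and not every library correlated best with its own number), so the numbers were not taken as pairs. The replicate block changed none of the counts of calls (2 depleted and 2 enriched for HNF4A, 2 and 0 for HNF4G). No called value changed sign. Among the values of single shRNAs under these alternatives, 403 kept their direction and side of the threshold of p, 18 newly passed it, 11 lost it and 16, all of uncalled shRNAs, changed sign. The depth limits the 5 shRNAs under a mean count of 10.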
